A study of Mus musculus with 7 samples.

Results

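Islet endothelial genes were followed in bulk RNA of pancreatic islets from 7 db/db mice. The genes are 34 named markers of the cells that line blood vessels, taken as a fixed list of symbols and matched through their Ensembl identifiers. All 34 were found among the 51912 genes of the table, and all 34 passed the filter on low counts that left 16504 genes for testing. The AAV-Adipsin group (n = 3) carried an adeno-associated virus (AAV) vector for adipsin, the complement protease encoded by Cfd, and the AAV-GFP group (n = 4) a vector for green fluorescent protein. All animals carried the db/db genotype, a loss of leptin receptor function that leads to obesity and diabetes, so no lean islets enter any comparison. Islets were isolated 4 weeks after the vector, at a time when serum glucose was similar in both groups per the labels, and were cultured for 12 hours, so the endothelium measured here had been outside the circulation for that time. The sources used here do not give the serotype or the promoter of the vectors.

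Pancreatic islets hold a dense net of fenestrated capillaries, which bring glucose to the beta cells and carry insulin away. Beta cells release vascular endothelial growth factor A (Vegfa), which acts on the receptor encoded by Kdr on the capillary cell and maintains its fenestrae. A second ligand system, the angiopoietins, acts through Tek, and Notch signals between neighbouring endothelial cells set arterial and sprouting behaviour.

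Total counts ran from 29601707 to 43997400 per library, and the counts of Cfd were 3965, 839 and 1481 with AAV-Adipsin against 1, 0, 0 and 0 with AAV-GFP. Replicate 1 of each group is described by a treatment name and the other 5 libraries by db numbers, and these 2 libraries lay together on the first principal component (41.3% of the variance). AAV-GFP replicate 4 lay at the other end of that component and was highest on the second (24.1%). The labels do not say what the description style stands for. The list as a whole is therefore also given within each style and without single libraries.

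The 34 genes took 0.106%, 0.125% and 0.110% of all counts in the 3 AAV-Adipsin libraries, against 0.0944%, 0.0807%, 0.0864% and 0.134% in the 4 AAV-GFP libraries. The 95% exact (Clopper-Pearson) interval was 0.124% to 0.127% in AAV-Adipsin replicate 2 and 0.0797% to 0.0817% in AAV-GFP replicate 2, and such intervals cover counting error only. Summed expression was 1054, 1243 and 1085 CPM (counts per library size, scaled with TMM) with AAV-Adipsin and 924, 819, 883 and 1367 CPM with AAV-GFP. It averaged 1127 ± 101 CPM with AAV-Adipsin (SD, n = 3) and 998 ± 250 CPM with AAV-GFP (SD, n = 4). The groups overlap, because AAV-GFP replicate 4 lies above every AAV-Adipsin library while the other 3 AAV-GFP libraries lie below all of them. In bulk RNA, fewer endothelial cells and less RNA per endothelial cell cannot be told apart.

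Levels of the members were compared with each other per length, as RPKM (CPM per kilobase of exon). The length is the union of all annotated exons of a gene, up to 16064 bases for Vwf. Where that exceeds the length of the transcripts present, the level reads too low, so the order holds for this measure only. Plvap, which encodes the protein of the diaphragms that span endothelial fenestrae, had the highest level, with 51.0, 66.1 and 49.8 RPKM in the AAV-Adipsin libraries against 41.4, 42.8, 39.4 and 94.3 RPKM in the AAV-GFP libraries. Eng, the co-receptor endoglin of the transforming growth factor beta family, came next at 20.4 ± 6.84 RPKM over all libraries (SD, n = 7). Plvap stood above Eng in 7 of 7 libraries, and their ranges did not overlap. Cdh5 (VE-cadherin, the adhesion molecule of endothelial junctions) followed at 18.5 ± 1.95 RPKM, Kdr at 12.3 ± 2.23, the junction protein gene Esam at 11.8 ± 1.79 and Pecam1 (CD31) at 11.5 ± 1.99 (SD, n = 7 each). These 6 genes held 52.8% of the summed level of the list.

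Below them, levels ran down almost without a step. In all, 8 members averaged above 10 RPKM, 22 lay between 1 and 10, and 4 were under 1. Of the 33 pairs of neighbours in the order, 2 had ranges that did not overlap, Plvap over Eng at the top and Vwf over Tal1 at the bottom. Cdh5 was also above Kdr in 7 of 7 libraries, although their ranges overlap. In each remaining pair the order differed between libraries. The lowest members were Clec14a, a surface lectin of sprouting endothelium, at 0.867 ± 0.494 RPKM, Sox17 at 0.708 ± 0.161, Vwf (von Willebrand factor, stored in larger vessels) at 0.611 ± 0.211 and Tal1, a transcription factor shared with blood precursors, at 0.313 ± 0.0719 (SD, n = 7 each). The lowest count of any member in any library was 37, so no member was listed near 0.

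**Figure D1:**
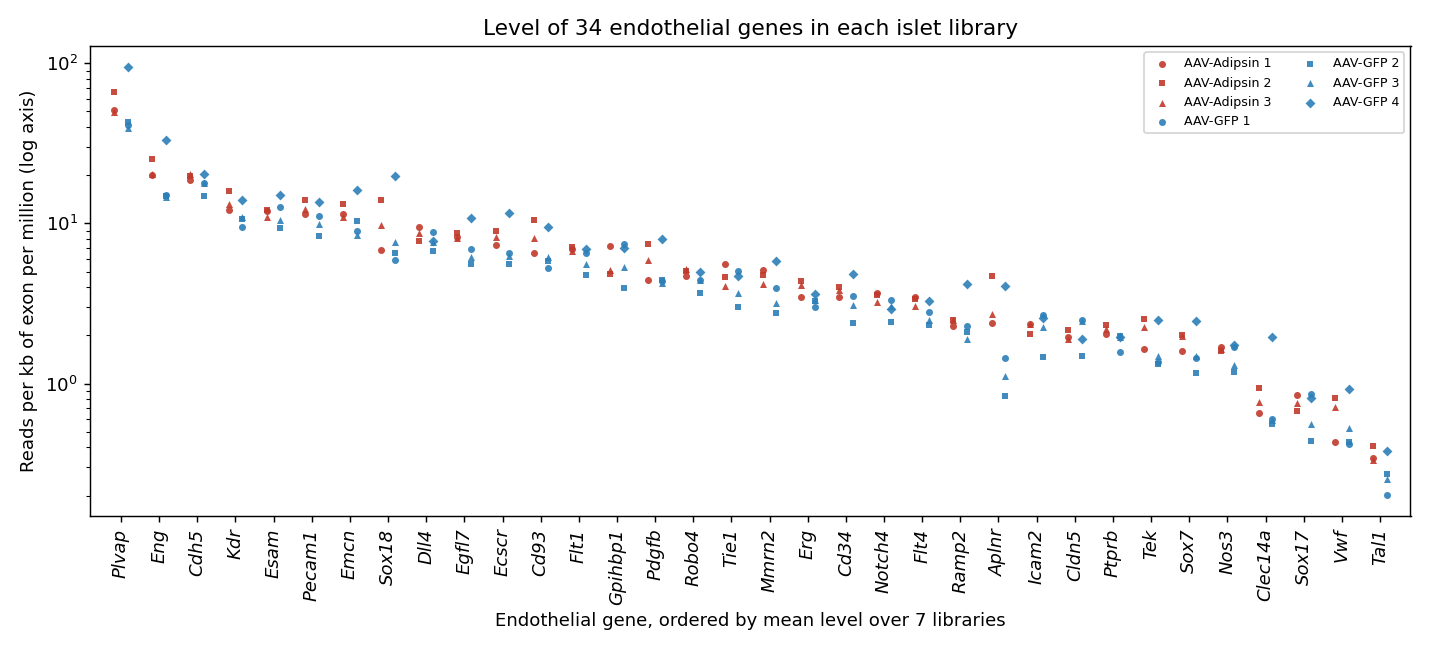
Level of each of the 34 genes (RPKM, log axis) in the 3 AAV-Adipsin libraries (red, left of each pair) and the 4 AAV-GFP libraries (blue), ordered by the mean over 7 libraries. Plvap stands above all others, and AAV-GFP replicate 4 (blue diamonds) is highest for 15 genes.

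The positions of the abundant members in GRCm38 are as follows. Plvap (ENSMUSG00000034845) lies on the minus strand of chromosome 8 from 71497765 to 71511752, and Cdh5 (ENSMUSG00000031871) on the plus strand of the same chromosome from 104101625 to 104144511. Eng (ENSMUSG00000026814) spans 32646595 to 32682669 on chromosome 2, and Kdr (ENSMUSG00000062960) 75932827 to 75978458 on chromosome 5. Members are spread over 16 chromosomes. Another annotated gene overlaps the span of 13 of them, and the strand setting of the counting is not given in the sources used here. The largest such neighbours lie on the opposite strand: Fpgs beside Eng reached 1304 counts in a library, Gtpbp3 beside Plvap 862 and Agpat2 beside Egfl7 735.

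Proximal promoters of the members were read from RefSeq (build GRCm38.p6), where 16 of the 34 genes matched, with 21 start sites. The 250 bases before each start were searched on both strands for the core letters of factor families that act in endothelium. AGGAAG, a form of the ETS site that Erg can bind, was present at 10 of 21 member starts (47.6%), against 29.5% of the 32851 starts of all genes. A minimum of 4 matches of its core GGAA, which AGGAAG and CCGGAAG also contain, was found at 47.6% of member starts and 33.4% of all starts, and a minimum of 2 at 85.7% and 76.8%. CCGGAAG, another ETS form, and TGTTTAC, a FOX form, were at 0 of 21 member starts, against 6.91% and 3.17% of all starts. A pair or more of the SOX core ACAAT was at 9.52% of member starts and 6.59% of all, the GATA form AGATAA at 9.52% and 9.99%, and the E-box CAGCTG at 9.52% of member starts and 4271 of all 32851. The promoters below are those of members with a single start in the table and at least 2 matches of AGGAAG, shown because they repeat the 6-letter ETS form, and that of Kdr, the main receptor, which has 4 GGAA cores and no AGGAAG. Each runs 5′ to 3′ on the strand of its gene, with AGGAAG or its reverse complement CTTCCT in capitals.
Eng: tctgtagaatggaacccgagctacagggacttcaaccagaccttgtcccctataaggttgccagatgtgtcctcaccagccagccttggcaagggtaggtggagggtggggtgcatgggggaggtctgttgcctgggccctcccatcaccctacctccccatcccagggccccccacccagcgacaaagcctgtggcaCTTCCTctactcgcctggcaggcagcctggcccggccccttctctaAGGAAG
Emcn: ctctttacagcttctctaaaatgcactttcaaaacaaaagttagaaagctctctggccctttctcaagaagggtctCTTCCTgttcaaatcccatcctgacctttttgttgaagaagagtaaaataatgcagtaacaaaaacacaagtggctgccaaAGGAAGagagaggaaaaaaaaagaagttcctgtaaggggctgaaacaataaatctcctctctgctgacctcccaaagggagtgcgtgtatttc
Flt1: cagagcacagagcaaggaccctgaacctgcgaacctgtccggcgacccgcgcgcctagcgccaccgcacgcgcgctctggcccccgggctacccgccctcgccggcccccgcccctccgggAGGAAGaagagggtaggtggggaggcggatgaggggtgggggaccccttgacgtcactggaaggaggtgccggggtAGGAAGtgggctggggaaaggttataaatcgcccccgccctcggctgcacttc
Notch4: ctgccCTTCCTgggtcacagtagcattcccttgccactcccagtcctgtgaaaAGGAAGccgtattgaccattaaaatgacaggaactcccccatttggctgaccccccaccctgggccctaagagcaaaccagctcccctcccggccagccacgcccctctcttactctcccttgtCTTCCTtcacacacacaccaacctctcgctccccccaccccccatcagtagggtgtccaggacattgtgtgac
Kdr: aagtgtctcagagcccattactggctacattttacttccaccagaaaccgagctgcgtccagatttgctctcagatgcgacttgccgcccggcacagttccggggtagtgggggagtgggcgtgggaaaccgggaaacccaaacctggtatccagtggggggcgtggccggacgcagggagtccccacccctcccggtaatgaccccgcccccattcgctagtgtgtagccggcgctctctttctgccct

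These windows are chr2:32646345-32646594 (plus) for Eng, chr3:137340828-137341077 (plus) for Emcn, chr5:147726012-147726261 (minus) for Flt1, chr17:34564045-34564294 (plus) for Notch4 and chr5:75978456-75978705 (minus) for Kdr. GENCODE places the first base of Emcn at 137341067, that of Notch4 at 34564268 and that of Kdr at 75978458, inside the windows. A match of letters describes the sequence and does not show a bound factor. The levels of these 5 genes were not alike: Emcn, the sialomucin endomucin of capillaries and veins, averaged 11.4 RPKM and Notch4 3.17 RPKM.

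Whether the adipsin vector goes with a different level of islet endothelial genes was asked gene by gene. The median log2 fold change of AAV-Adipsin over AAV-GFP was 0.179 over the 34 genes, against -0.0111 over all 16504 genes tested, and 29 of 34 lay above 0, against 46.2% of all genes. By edgeR's quasi-likelihood F test, 0 of 34 members passed an adjusted p of 0.05, where 1 of all genes tested (0.00606%), Cfd, was called. At an unadjusted p under 0.05 there were also 0 of 34 members, against 1.16% of all genes (0.721% higher and 0.436% lower). DESeq2 and limma-voom likewise called 0 members. Each had 2 members at an unadjusted p under 0.05, against 214 genes by DESeq2 and 189 by limma-voom of the 16504 tested. For 18 of the 34, the standard error (SE) exceeded the fold change itself. Adjusted p from edgeR was 1.00 for every member.

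**Figure D2:**
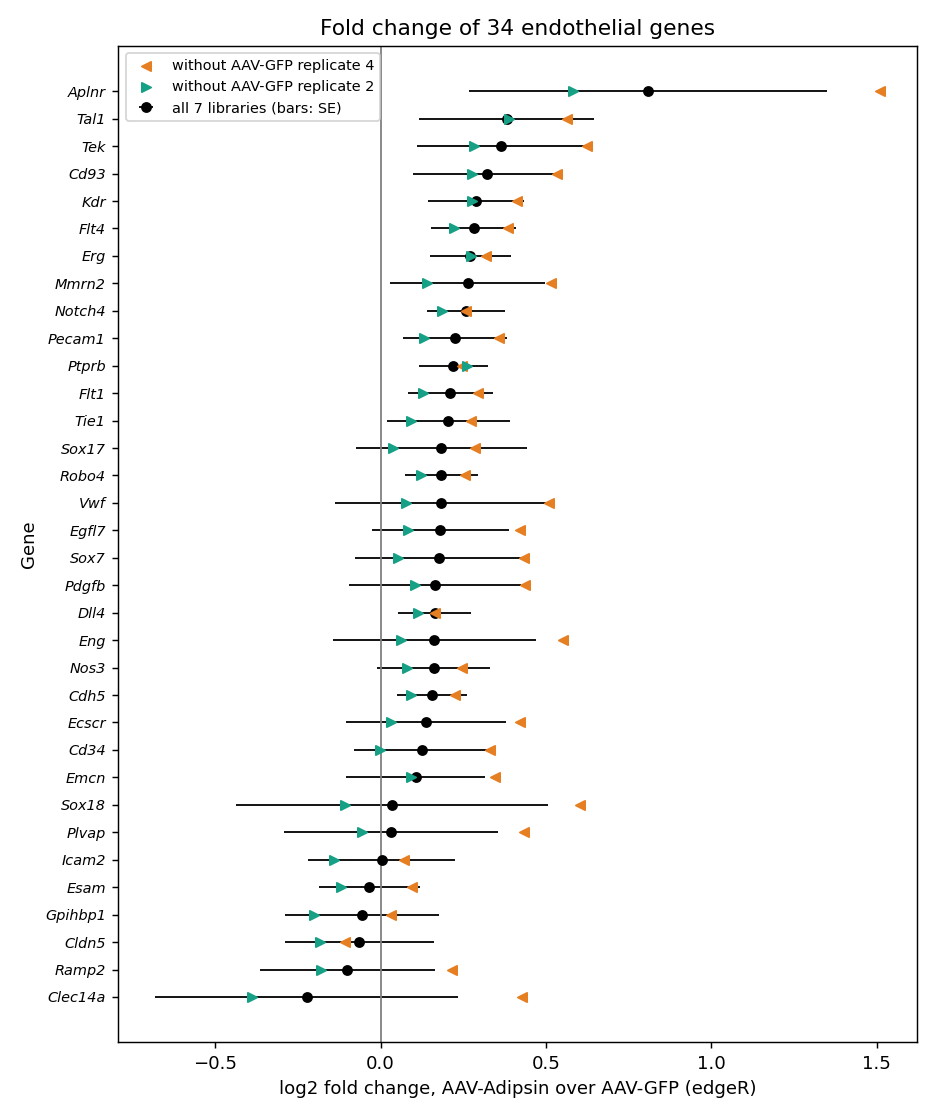
Log2 fold change of AAV-Adipsin over AAV-GFP for each gene (black points with SE bars, all 7 libraries), with the estimates without AAV-GFP replicate 4 (orange) and without AAV-GFP replicate 2 (green). Of the 34 points, 29 lie above 0, most estimates move up without replicate 4, and no gene passed the adjusted threshold.

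The vascular endothelial growth factor receptors were all on the positive side. Kdr had 109, 144 and 120 CPM in the AAV-Adipsin libraries against 85.2, 96.4, 98.9 and 126 CPM in the AAV-GFP libraries. Its log2 fold change was 0.29 (SE 0.15, edgeR p = 0.0805, exact permutation p = 0.171), and AAV-GFP replicate 4 alone keeps the groups from separating. Flt1, a receptor that also acts as a sink for the ligand, had 93.1, 96.3 and 90.4 CPM with AAV-Adipsin against 88.6, 64.2, 75.5 and 93.8 CPM with AAV-GFP, at 0.21 (SE 0.13). Flt4, the receptor for Vegfc, known for lymphatic vessels and also found in fenestrated capillaries, had 28.8, 27.7 and 25.2 CPM with AAV-Adipsin against 23.0, 19.1, 20.4 and 27.1 CPM with AAV-GFP. Its fold change was 0.28 (SE 0.13, edgeR p = 0.0558, exact permutation p = 0.114), with 2 of 3 AAV-Adipsin libraries above all AAV-GFP libraries. The 6 genes of the lymphatic list summed to 62.8, 70.1 and 73.1 CPM with AAV-Adipsin against 62.6, 71.6, 67.9 and 60.6 CPM with AAV-GFP. Most of this was Prox1, a transcription factor of lymphatic endothelium that islet endocrine cells also express, at 52.6, 54.3 and 59.6 CPM with AAV-Adipsin against 51.9, 60.6, 56.96 and 44.6 CPM with AAV-GFP. Lyve1, a hyaluronan receptor that some macrophages carry as well, lay between 7.52 and 10.3 CPM and Pdpn between 0.455 and 7.94 CPM, while Ccl21a had no count in any library and Mmrn1 a single count in AAV-GFP replicate 1.

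Ligands, receptors and co-receptors outside the list showed a mixed picture. Vegfa had 351, 316 and 335 CPM with AAV-Adipsin against 395, 342, 347 and 334 CPM with AAV-GFP, and its mean level of 80.7 RPKM over 7 libraries was above the mean of each endothelial member, although Plvap exceeded it in AAV-GFP replicate 4 (94.3 RPKM for Plvap and 78.1 RPKM for Vegfa). Its log2 fold change was -0.09 (SE 0.09), and the groups overlap. Of 11 ligand genes tested, 0 were called, 5 were above 0, and the median was -0.085. Those below 0 included, besides Vegfa, its family members Vegfb (-0.15, SE 0.10), Vegfc (-0.09, SE 0.20), Vegfd (-0.14, SE 0.36) and Pgf (-0.38, SE 0.24). For each of these the groups overlap. A further list of 10 receptors and co-receptors held Nrp1, Nrp2, Calcrl, Ramp3, Acvrl1, Bmpr2, Pdgfrb, S1pr1, Itgb3 and Plxnd1. Pdgfrb is also counted among the mural cell genes below. All 10 were above 0 (46.2% of all genes tested were) with a median of 0.18, and 0 were called. The neuropilins, which hold the growth factor beside its receptor, had the smallest p of them: Nrp1 was at 31.8 ± 3.59 CPM with AAV-Adipsin (SD, n = 3) and 24.9 ± 2.66 CPM with AAV-GFP (SD, n = 4), a fold change of 0.35 (SE 0.12, edgeR p = 0.0149, adjusted p = 1.00, exact permutation p = 0.114), and Nrp2 was at 0.45 (SE 0.15, edgeR p = 0.0161, adjusted p = 1.00, exact permutation p = 0.114). Slit3, a ligand of the Robo family, was at 0.69 (SE 0.25) and at most 3.18 CPM in a library.

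The Tie receptors differed in which libraries were high. Tek, the angiopoietin receptor, had 7.70, 12.0 and 10.6 CPM with AAV-Adipsin against 6.41, 6.27, 6.96 and 11.8 CPM with AAV-GFP, a log2 fold change of 0.36 (SE 0.25). Tie1, its partner without a known ligand of its own, had 27.4, 22.7 and 20.1 CPM with AAV-Adipsin against 24.9, 14.9, 18.2 and 23.2 CPM with AAV-GFP, at 0.21 (SE 0.19). Tek was highest in AAV-Adipsin replicate 2 and AAV-GFP replicate 4, whereas Tie1 was highest in the 2 libraries with a treatment name. Ptprb, the phosphatase that acts on Tek and on VE-cadherin, was the 1 member whose groups did not overlap (1.16% of all genes tested did not overlap on the higher side and 1.58% on the lower side, where there were 0 members). It had 27.1, 30.9 and 29.2 CPM with AAV-Adipsin against 21.1, 26.5, 25.9 and 26.2 CPM with AAV-GFP. Its log2 fold change was 0.22 (SE 0.10, edgeR p = 0.0659, adjusted p = 1.00) and its exact two-sided permutation p was 0.0571, the smallest that 3 against 4 libraries can give. Angpt2, the ligand released by sprouting endothelium, averaged 32.8 ± 3.24 CPM with AAV-Adipsin (SD, n = 3) and 26.6 ± 4.17 CPM with AAV-GFP (SD, n = 4), at 0.30 (SE 0.13, edgeR p = 0.0489, adjusted p = 1.00, exact permutation p = 0.114).

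Among genes of the Notch pathway, Notch4, the receptor that is largely confined to endothelium, had 29.7, 28.9 and 26.1 CPM with AAV-Adipsin against 26.7, 19.4, 24.7 and 23.6 CPM with AAV-GFP. The log2 fold change was 0.26 (SE 0.12, edgeR p = 0.0559, exact permutation p = 0.114), and AAV-GFP replicate 1 overlaps the AAV-Adipsin range. Dll4, the ligand of arterial and tip cells, had 36.4, 30.1 and 33.7 CPM with AAV-Adipsin against 33.9, 25.98, 29.6 and 29.8 CPM with AAV-GFP, at 0.16 (SE 0.11). Both genes lay below their own mean in AAV-GFP replicate 4, where 30 of the 34 members lay above theirs. Of 11 other Notch genes tested, 0 were called and 9 were above 0 (46.2% of all genes tested were), with a median of 0.18. Notch1 was the 1 of them whose groups did not overlap, at 36.6 ± 0.751 CPM with AAV-Adipsin (SD, n = 3) and 31.4 ± 5.38 CPM with AAV-GFP (SD, n = 4), with edgeR p = 0.137 and an exact permutation p of 0.0571. Over all genes tested, 1.16% did not overlap on the higher side.

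Erg, which keeps endothelial genes active, had the smallest p of all members. It stood at 12.0, 15.2 and 14.4 CPM with AAV-Adipsin against 10.45, 11.3, 11.6 and 12.6 CPM with AAV-GFP, a log2 fold change of 0.27 (SE 0.12, edgeR p = 0.0541, exact permutation p = 0.114). The groups overlap through AAV-Adipsin replicate 1 and AAV-GFP replicate 4. Of the 3 SoxF factors, which act together in vessel growth, Sox7 and Sox18 were both highest in AAV-GFP replicate 4, and Sox17 was not. Sox18 had 11.1, 22.6 and 15.8 CPM with AAV-Adipsin against 9.52, 10.6, 12.5 and 32.0 CPM with AAV-GFP, at 0.04 (SE 0.47), a range of 3.36-fold between libraries. Sox7 had 5.24, 6.63 and 6.51 CPM with AAV-Adipsin against 4.80, 3.83, 4.94 and 8.14 CPM with AAV-GFP, at 0.18 (SE 0.25). Sox17 had 4.04, 3.20 and 3.63 CPM with AAV-Adipsin against 4.14, 2.08, 2.68 and 3.86 CPM with AAV-GFP, at 0.18 (SE 0.26), highest in AAV-GFP replicate 1 where Sox18 was lowest. Tal1 had the second largest fold change of the list, 0.38 (SE 0.26), at 1.504, 1.78 and 1.45 CPM with AAV-Adipsin against 0.890, 1.20, 1.12 and 1.66 CPM with AAV-GFP.

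Aplnr, the apelin receptor of veins and sprouting capillaries, had the largest fold change and was named after its values were seen. It had 8.82, 17.3 and 10.04 CPM with AAV-Adipsin against 5.32, 3.12, 4.16 and 14.97 CPM with AAV-GFP. That is a log2 fold change of 0.81 (SE 0.54, edgeR p = 0.176, exact permutation p = 0.171), and the spread between libraries was 5.54-fold, the widest of the list. Leaving out AAV-GFP replicate 4 gave 1.511, and leaving out AAV-Adipsin replicate 2 gave 0.466. AAV-GFP replicate 4 again lies inside the AAV-Adipsin range and the other 3 AAV-GFP libraries below it. Its ligand gene Apln had 3.16, 3.62 and 4.10 CPM with AAV-Adipsin against 6.36, 5.03, 3.79 and 1.28 CPM with AAV-GFP, lowest where Aplnr was highest among the AAV-GFP libraries. Esm1, a marker of endothelial tip cells that is also abundant in islets, was at 108 ± 5.49 CPM with AAV-Adipsin (SD, n = 3) and 104 ± 11.1 CPM with AAV-GFP (SD, n = 4), a fold change of 0.06 (SE 0.10).

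The 5 members below 0 were Clec14a, Ramp2, Cldn5, Gpihbp1 and Esam. Clec14a had 3.01, 4.28 and 3.53 CPM with AAV-Adipsin against 2.74, 2.57, 2.73 and 8.90 CPM with AAV-GFP, a log2 fold change of -0.22 (SE 0.46) that AAV-GFP replicate 4 sets: without it the value was 0.43. Ramp2, which pairs with the adrenomedullin receptor, had 7.52, 8.25 and 8.28 CPM with AAV-Adipsin against 7.52, 6.92, 6.26 and 13.8 CPM with AAV-GFP. Its fold change was -0.10 (SE 0.26), and 0.22 without AAV-GFP replicate 4. Cldn5, the claudin of tight endothelial junctions, had 2.77, 3.08 and 2.68 CPM with AAV-Adipsin against 3.56, 2.11, 3.48 and 2.69 CPM with AAV-GFP, at -0.06 (SE 0.22). Gpihbp1, which anchors lipoprotein lipase to capillaries, had 18.4, 12.3 and 13.1 CPM with AAV-Adipsin against 19.1, 10.1, 13.8 and 17.9 CPM with AAV-GFP, at -0.06 (SE 0.23). Esam had 34.02, 34.5 and 31.6 CPM with AAV-Adipsin against 36.5, 27.0, 30.2 and 43.1 CPM with AAV-GFP, at -0.03 (SE 0.15). The groups overlap for all 5, and for Clec14a and Ramp2 they did not overlap once AAV-GFP replicate 4 was left out. Without that library, 4.12% of all genes did not overlap on the higher side. For Ramp2 the gap was marginal, at 7.52 CPM in AAV-Adipsin replicate 1 and 7.518 CPM in AAV-GFP replicate 1.

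The other members include the most used pan-endothelial markers, and none separated the groups. Pecam1 had 71.3, 87.0 and 76.5 CPM with AAV-Adipsin against 69.4, 51.8, 62.0 and 84.7 CPM with AAV-GFP, a log2 fold change of 0.22 (SE 0.16). Cdh5 had 78.6, 83.6 and 85.9 CPM with AAV-Adipsin against 74.8, 62.5, 74.9 and 84.95 CPM with AAV-GFP, at 0.16 (SE 0.11). Plvap averaged 111 ± 18.1 CPM with AAV-Adipsin (SD, n = 3) and 108 ± 52.8 CPM with AAV-GFP (SD, n = 4), at 0.03 (SE 0.32). Eng, with 80.6, 102 and 82.0 CPM with AAV-Adipsin against 61.1, 59.9, 59.4 and 135 CPM with AAV-GFP, was at 0.16 (SE 0.31), and leaving out AAV-GFP replicate 4 gave 0.552, leaving out AAV-GFP replicate 3 0.049. Cd93, Mmrn2, Robo4, Egfl7, Pdgfb, Nos3, Ecscr, Cd34, Emcn, Icam2 and Vwf ranged from 0.00 for Icam2 to 0.32 for Cd93. Among them Vwf had 6.90, 13.2 and 11.5 CPM with AAV-Adipsin against 6.76, 6.92, 8.50 and 14.97 CPM with AAV-GFP. Nos3, the endothelial nitric oxide synthase, was at 6.82 ± 0.186 CPM with AAV-Adipsin (SD, n = 3) and 6.11 ± 1.13 CPM with AAV-GFP (SD, n = 4).

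The lowest value of each of the 34 members was in an AAV-GFP library. That group holds 4 of the 7 libraries, and the share of all genes with their lowest value there was not counted. The members share libraries, so these are not 34 independent results. AAV-GFP replicate 2 held the lowest value of 22 of the 34 members and had 0 members above their own mean over the 7 libraries, and AAV-GFP replicates 1 and 3 held the other 7 and 5 lowest values. The highest value was in AAV-GFP replicate 4 for 15 members, in AAV-Adipsin replicate 2 for 9, in AAV-Adipsin replicate 1 for 4, in AAV-GFP replicate 1 for 4 and in AAV-Adipsin replicate 3 for 2. Relative to each gene's mean log2 CPM, the median member stood at 0.02, 0.22 and 0.11 in the AAV-Adipsin libraries, against -0.12, -0.41, -0.22 and 0.33 in the AAV-GFP libraries. The median coefficient of variation over 7 libraries was 22.6%, from 10.5% for Cdh5 to 59.6% for Aplnr.

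**Figure D3:**
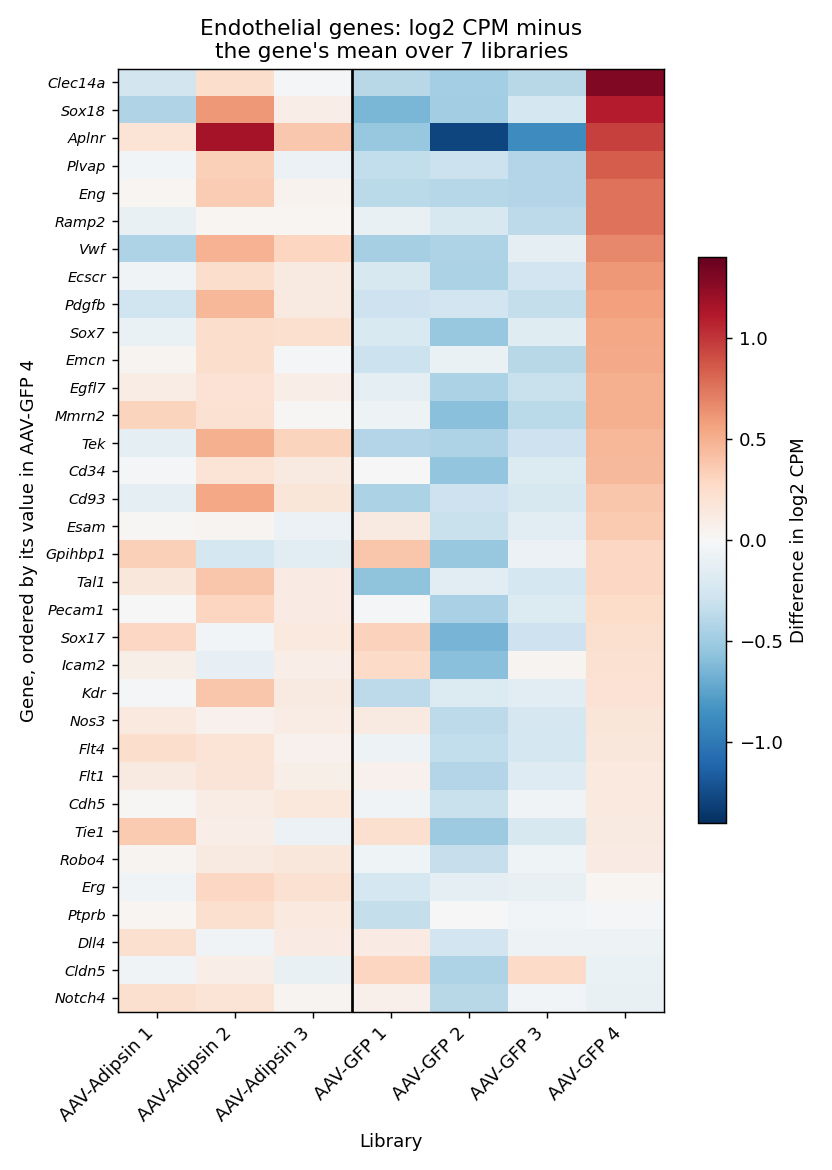
Difference of log2 CPM from the gene's own mean over 7 libraries (colour scale) for each gene (rows) and library (columns, AAV-Adipsin left of the line, AAV-GFP right). AAV-GFP replicate 2 is below the mean for 33 genes and at it for Ptprb, and AAV-GFP replicate 4 is above it for 30.

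Leaving out a single library moved the median fold change from 0.091 without AAV-GFP replicate 2 to 0.352 without AAV-GFP replicate 4. Without replicate 4, 33 of 34 members were above 0 (45.6% of all genes), 20 had an unadjusted edgeR p under 0.05 on the higher side (2.83% of all genes) and 21 did not overlap on the higher side (4.12% of all genes), while the smallest adjusted p of a member was 0.805. In that library 30 members lay above their own mean, so leaving it out was bound to raise most estimates. The members also share libraries, so these counts are not independent results. Without replicate 2, 25 of 34 were above 0 (49.9% of all genes), 0 had an unadjusted p under 0.05 on the higher side (0.494% of all genes) and 1 did not overlap on that side (2.05% of all genes). Leaving out any of the other 5 libraries gave medians of 0.139 to 0.211. Single members moved further: without AAV-GFP replicate 4, Tek was at 0.624 (0.364 with all libraries), Cd93 at 0.534 (0.321), Mmrn2 at 0.515 (0.263), Sox7 at 0.435 (0.176), Egfl7 at 0.423 (0.181), Ecscr at 0.423 (0.137) and Emcn at 0.347 (0.106). Sox17 was at 0.038 (0.184) and Nos3 at 0.079 (0.160) when AAV-GFP replicate 2 was left out, and Tie1 at 0.072 (0.205) when AAV-Adipsin replicate 1 was left out. Within the pair described by treatment names, which is 1 library of each group, AAV-Adipsin exceeded AAV-GFP for 28 of 34 members. The median difference was 0.14 in log2 CPM, and that of Ramp2, among the 28, rounds to 0. Of all genes, 49.6% were higher in the AAV-Adipsin library of this pair. Among the 5 with db numbers the count was 31 of 34 and the median 0.23, where 49.1% of all genes were higher with AAV-Adipsin.

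Ratios of members to Cdh5 within a library were added after the values were seen. Robo4, a guidance receptor that stabilises vessels, kept a nearly fixed ratio to Cdh5, at 0.318, 0.320 and 0.319 in the AAV-Adipsin libraries and 0.312, 0.313, 0.312 and 0.313 in the AAV-GFP libraries. The ratio of Plvap to Cdh5 was 1.29, 1.57 and 1.15 with AAV-Adipsin against 1.1, 1.36, 1.04 and 2.21 with AAV-GFP. That of Eng to Cdh5 was 1.03, 1.22 and 0.954 with AAV-Adipsin against 0.816, 0.959, 0.794 and 1.59 with AAV-GFP. AAV-GFP replicate 4 had the highest ratio of the 7 libraries for Plvap, Eng and Clec14a (0.105 for Clec14a). It was also highest for other members, among them Emcn, Egfl7, Sox18 and Pdgfb, and lowest for Dll4, at 0.351, and Notch4, at 0.278. Aplnr to Cdh5 averaged 0.145 ± 0.053 with AAV-Adipsin (SD, n = 3) and 0.0882 ± 0.059 with AAV-GFP (SD, n = 4), and the groups overlap.

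Sums of mural and mesenchymal markers were highest and lowest in the same libraries as the endothelial sum. The 8 mesenchymal genes, among them the collagen genes Col1a1 and Col3a1, summed to 92.7, 133 and 120 CPM with AAV-Adipsin against 68.5, 25.4, 46.3 and 259 CPM with AAV-GFP. The 10 mural cell genes, which mark the pericytes and smooth muscle around vessels, summed to 122, 144 and 149 CPM with AAV-Adipsin against 120, 99.2, 119 and 165 CPM with AAV-GFP. Of these 10, 9 lay above 0 (46.2% of all genes tested did), their median fold change was 0.29 in log2, and 0 were called. Myh11, the smooth muscle myosin, was at 2.36 ± 0.182 CPM with AAV-Adipsin (SD, n = 3) and 1.55 ± 0.149 CPM with AAV-GFP (SD, n = 4), a fold change of 0.61 (SE 0.19, edgeR p = 0.0128, adjusted p = 1.00, exact permutation p = 0.0571), without overlap, and Cspg4, the pericyte proteoglycan, did not overlap either, at 0.39 (SE 0.18). Over all genes tested, 1.16% did not overlap on the higher side. Macrophage genes summed to 129, 254 and 140 CPM with AAV-Adipsin against 116, 134, 128 and 168 CPM with AAV-GFP. Of these, 9 of 9 were above 0 (46.2% of all genes tested were) with a median of 0.52, and 0 were called. The mesenchymal list had 8 of 8 above 0 with a median of 0.24, against a median of 0.179 for the endothelial members. Acinar genes ran otherwise, at 3374, 11040 and 2958 CPM with AAV-Adipsin against 4539, 8109, 15450 and 2317 CPM with AAV-GFP, lowest in AAV-GFP replicate 4. Of the 9 acinar genes, 0 were above 0, with a median of -0.35. Of 9 beta cell genes, 0 were above 0 as well, with a median of -0.06. The part of these cells in the endothelial values was not tested.

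Some members are also expressed in blood cells and platelets. The red cell genes summed to 0.934, 2.79 and 2.40 CPM with AAV-Adipsin against 2.25, 0.520, 1.72 and 2.35 CPM with AAV-GFP. Leukocyte genes summed to 3.03, 6.95 and 3.70 CPM with AAV-Adipsin against 2.54, 2.44, 3.35 and 3.21 CPM with AAV-GFP, with Cd3e and Nkg7 at 0 in all. The 7 platelet and megakaryocyte genes summed to 9.18, 19.1 and 9.13 CPM with AAV-Adipsin against 9.94, 7.79, 7.07 and 10.9 CPM with AAV-GFP. Of the 4 that were tested, 2 were above 0 and 0 were called. Their smallest p was that of Pf4, at a log2 fold change of 2.36 (SE 0.96, edgeR p = 0.0420, adjusted p = 1.00, exact permutation p = 0.286). It had 0.648, 11.9 and 1.63 CPM with AAV-Adipsin against 0.823, 0.552, 0.598 and 1.73 CPM with AAV-GFP, so AAV-Adipsin replicate 2 stood apart, and Gp9 had a single count in AAV-GFP replicate 3. Adipocyte genes summed to at most 0.267 CPM in a library, with Lep at 0 in all.

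Of 16 further endothelial genes tested, 13 were above 0 (46.2% of all genes tested were), the median was 0.12 and 0 were called. Of 12 further endothelial transcription factors tested, 6 were above 0 with a median of -0.03, and Etv2, a factor of embryonic vessels, had no count. The arterial list was above 0 for 7 of 7 with a median of 0.17, the venous list for 3 of 5, the tip cell list for 4 of 6 and the lymphatic list for 3 of 4 tested, and 0 genes of these lists were called. Nid2, a basement membrane gene of tip cells, was at 0.42 (SE 0.18, edgeR p = 0.0410, adjusted p = 1.00, exact permutation p = 0.114). Gja5, an arterial connexin, had a larger fold change, 1.76 (SE 0.76), at no more than 0.825 CPM in a library.

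Activated endothelium displays adhesion genes that bind leukocytes. Of these, Icam1 had 3.01, 47.0 and 52.8 CPM with AAV-Adipsin against 2.89, 36.4, 23.4 and 70.7 CPM with AAV-GFP, so both libraries with a treatment name were far below the other 5. Selp (P-selectin) had 0.752, 8.75 and 10.7 CPM with AAV-Adipsin against 1.36, 0.779, 0.0260 and 19.9 CPM with AAV-GFP, so it was also low in AAV-GFP replicates 2 and 3. The 4 genes of this list summed to 8.82, 68.2 and 76.7 CPM with AAV-Adipsin against 6.81, 43.1, 28.2 and 109 CPM with AAV-GFP. Their log2 fold changes lay between 0.05 and 0.48, and 0 were called. In the mean log2 CPM of the list, AAV-Adipsin exceeded AAV-GFP by 0.31 within the pair with treatment names and by 1.63 among the others. A mean of logs gives low values much weight, among them Selp in AAV-GFP replicate 3, below the 0.078 CPM that 3 counts equal there. The summed CPM of those other 5 libraries overlapped between groups, with AAV-GFP replicate 4 highest. Icam2, the member of the same adhesion family that resting endothelium carries, did not share this pattern, at 4.46, 3.87 and 4.51 CPM with AAV-Adipsin against 5.09, 2.79, 4.31 and 4.87 CPM with AAV-GFP.

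**Figure D4:**
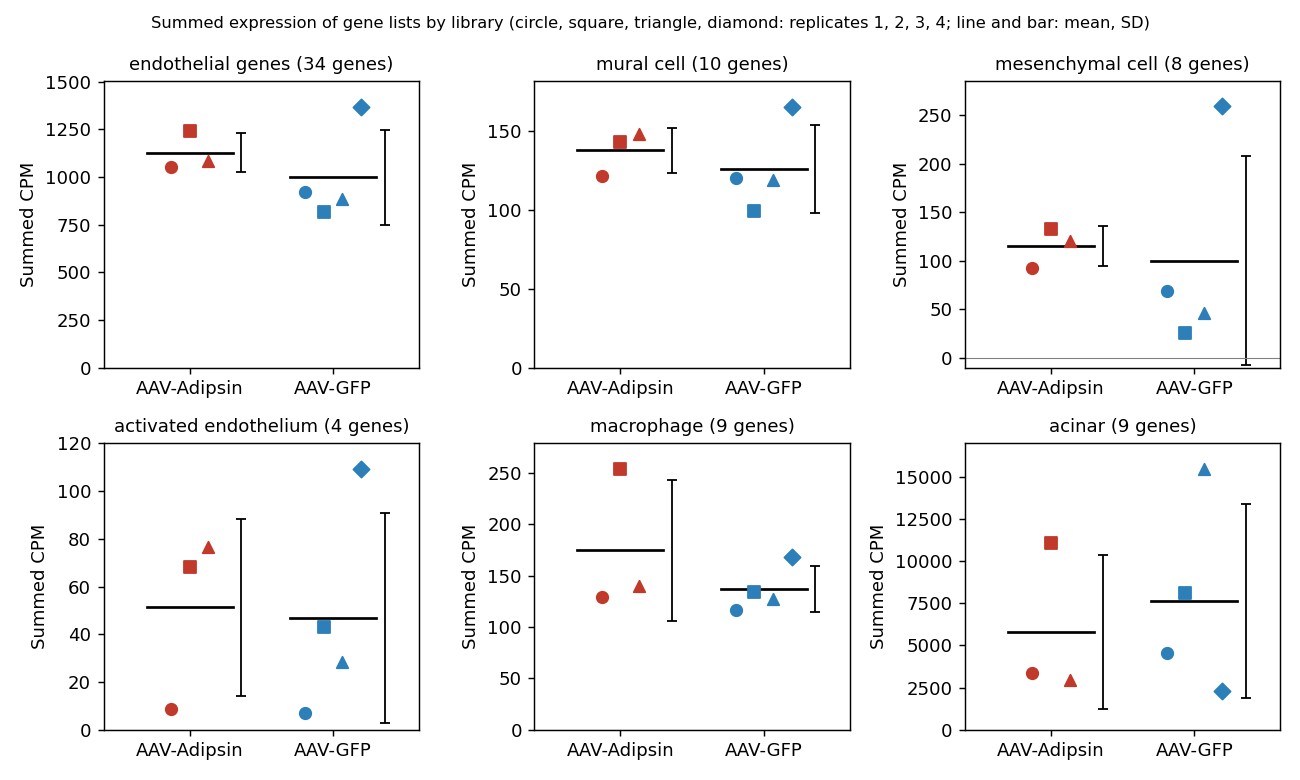
Summed CPM of 6 gene lists in each library (AAV-Adipsin in red at left, AAV-GFP in blue at right; symbols give the replicate, the line is the mean and the bar its SD). AAV-GFP replicate 4 (diamond) is highest for the endothelial, mural, mesenchymal and activated endothelium lists and lowest for the acinar list.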

How the data were processed

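Messenger RNA libraries (stranded kit, per the labels' protocols) were made from islets of 7 mice, each a separate biological replicate per the labels. The authors deposited 1 table of whole-number read counts, 1 column a library. The submitters' processing notes name STAR, an aligner, and the builds mm10 and GRCm38. The sources used here do not give the STAR version, the counter, its strand setting or the annotation release. Symbols, coordinates and union exon lengths came from GENCODE M21 (GRCm38), and promoters from RefSeq.

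Counts were filtered with filterByExpr by group, scaled with TMM (trimmed mean of M values) and fitted with robust quasi-likelihood in edgeR 4.0.16 (R 4.3.3), with treatment as the only term. P values were adjusted by Benjamini-Hochberg over the 16504 genes that passed, and 0.05 was the threshold. A positive fold change means higher with AAV-Adipsin, and SE comes from the F statistic. Log2 CPM carried a prior count of 2, and 3 counts equal 0.0667 to 0.104 CPM. Permutation tests used all 35 divisions of the libraries and cannot go below 0.0571. DESeq2 1.42.0 and limma-voom (limma 3.58.1) were among 15 alternatives. The tests were also tried on simulated counts, with 200 genes changed and noise independent between genes. Those changes were larger than that of any member with all libraries, so the trial does not cover changes of the size seen here.

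The members and lists were chosen with earlier results of these data known. Library values are given for the 6 highest members per length, the 3 lowest, the 4 smallest p in each direction, those without overlap and the receptor, SoxF, Tie and Notch families. For other lists up to 2 genes with the smallest p were eligible. Protein comparisons and a likeness to Pecam1 by correlation, planned at first, are not reported here.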

Additional observations from a re-analysis of the deposited data

Results flagged for a closer look

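In 6 of the 34 genes, a library of the 4 with AAV-GFP lay so far from the other 3 that its gap, as a share of the group's range, exceeded Dixon's 95% critical value for 4 samples. Chance flags about 1 in 20 groups, and the genes share libraries, so the flags are not independent. AAV-GFP replicate 4 was the high library for 5 of them. The share was 0.967 for Eng, 0.949 for Clec14a, 0.924 for Pdgfb (a growth factor that recruits pericytes), 0.906 for Plvap and 0.833 for Tek. AAV-GFP replicate 1 was the low library for Ptprb, with a share of 0.896. Groups of 3 are not tested in this way, so the AAV-Adipsin libraries were not examined.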

How the results depend on the processing

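No member was called under any of the 15 alternatives, where the smallest adjusted p of a member was 0.265. The median fold change of the members was above 0 in each, from 0.091 to 0.353 (0.091 to 0.352 with 1 library left out), against 0.179 with all libraries. The count of genes called was 1 with all libraries, 4 with DESeq2, and 0 without a filter on low counts, with limma-voom and without the 2 treatment-named libraries, where Cfd was no longer called. Leaving out single libraries gave 0 to 1. Unadjusted p under 0.05 was reached by 191 genes with all libraries, 448 without a filter, 458 with description style as a batch, 492 without the 2 treatment-named libraries and 92 to 570 with 1 library left out. The cause was not tested. With the replicate number as a block, the median of the members was 0.353, 33 of 34 were above 0, 25 had an unadjusted p under 0.05 and 0 members were called, against 1109 of all genes at an unadjusted p under 0.05. The block gives AAV-GFP replicate 4 a level of its own, so it enters no contrast. Same-numbered replicates correlated in their deviations from the group means at r = 0.661, -0.011 and 0.007 for numbers 1, 2 and 3 across genes, so the numbers were not taken as pairs. AAV-Adipsin replicates 2 and 3 correlated best with AAV-GFP replicate 4 (r = 0.308 and 0.205).

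The sign of 23 members was kept under each alternative, and 11, none of them called, turned under at least 1. Over single libraries left out, values ran from -0.388 to 0.428 for Clec14a, -0.252 to 0.602 for Sox18, -0.226 to 0.217 for Ramp2, -0.104 to 0.434 for Plvap, -0.026 to 0.436 for Pdgfb, -0.002 to 0.509 for Vwf, -0.002 to 0.330 for Cd34, -0.261 to 0.084 for Gpihbp1, -0.183 to 0.050 for Cldn5, -0.142 to 0.113 for Icam2 and -0.121 to 0.096 for Esam. With the replicate block, Clec14a was at 0.411, Ramp2 at 0.218, Esam at 0.103 and Gpihbp1 at 0.050. Clec14a was at 0.021 with limma-voom, and Icam2 at -0.008 with style as a batch. Without the 2 treatment-named libraries, Plvap was at -0.007 and Cldn5 at 0.067.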
